A study of Homo sapiens with 20 samples.

Results

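The cultures described here are the scramble controls at day 7 of a differentiation of human embryonic stem cells (hESC) to surface epithelium (SE), 4 of the 20 RNA-seq libraries of the study. Replicates 1 and 2 of the control of the FOXO4 knockdown experiment were set against replicates 1 and 2 of the control of the SP6 knockdown experiment. They were chosen by their labels and by the table that holds them, with earlier results of these data known. At day 3 and day 7 the study set FOXO4 or SP6 knockdown cells, made with short hairpin RNAs (shRNA), beside scramble cells, and it also sequenced unmodified hESC and unmodified cells at day 3. The scramble cultures of both experiments were H1 cells, an established hESC line, carried a scramble shRNA as a control hairpin and had received the SE differentiation treatment up to the stage that the labels place at day 7 and call maturating. By their labels the controls therefore differed in nothing but the experiment they belong to, and the comparison asks how far apart such controls stood. The labels do not say whether replicates were separate cultures, or whether the hairpin cells were a pool or a clone, so the p-values below rest on the spread among these 4 libraries alone, part or all of which may be technical.

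Human embryonic stem cells hold a set of pluripotency factors (POU5F1, NANOG and SOX2 among them) that shut down as cells commit to a lineage. Surface ectoderm turns on TFAP2A, GATA3 and simple keratins, while mesenchymal cells lay down fibrillar collagens and small proteoglycans such as decorin. HOX genes switch on in the order of their position within each cluster, so that those active late mark posterior or older tissue. The mitochondrial genome encodes subunits of the respiratory chain, whose remaining subunits come from nuclear genes. Glycolytic enzymes and several stress genes respond to low oxygen, and metallothioneins respond to zinc and other metals.

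Between 17369800 and 19699973 reads per library were recovered from the deposited normalized counts of the 4 libraries. Each table had been normalized on its own, so the 4 libraries were brought to 1 scale by the median of ratios over 16307 genes. All levels below are read counts on that scale unless another scale is named. Differences are log2(level + 1) of the FOXO4-experiment culture minus the SP6-experiment culture, which understates the change of genes with few reads. Experiment, table and culture go together and cannot be told apart. Replicates correlated at r = 0.989 in the FOXO4 experiment and 0.990 in the SP6 experiment across genes of a library, and libraries of different experiments at 0.913 to 0.939.

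Of 16468 genes with a mean level of at least 10, limma called 9175 at an adjusted p under 0.05, which is 55.7% of the genes tested. That mean is over both experiments, so a gene can pass through the experiment where it is high alone. Of these, 4568 (27.7%) were higher in the FOXO4-experiment cultures and 4607 (28%) were higher in the SP6-experiment cultures. At a change of at least 2-fold as well, 925 genes (5.62%) were higher in the FOXO4-experiment cultures and 2272 (13.8%) in the SP6-experiment cultures. When protein-coding genes alone were scaled and fitted, these counts were 708 (5.13%) and 1478 (10.7%) of 13788. On the values as deposited, with each table on its own scale, 2728 were higher in the FOXO4 experiment and 6882 in the SP6 experiment, and the median over all genes moved from -0.01 to -0.25. Without replicate 2 of the SP6 experiment, 3454 were higher in the FOXO4 experiment and 2853 in the SP6 experiment. The pairs of libraries did not overlap at 13247 genes (80.4%), with the FOXO4-experiment pair higher at 6525 (39.6%) and the SP6-experiment pair higher at 6722 (40.8%). Every count of list members below is to be read against these shares.

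The FOXO4-experiment cultures held the smaller remnant of pluripotency genes. Of 27 pluripotency genes tested, 23 were higher in the SP6-experiment cultures, 17 of them by at least 2-fold, 1 was higher in the FOXO4-experiment cultures and 3 were not called. The median difference of the list was -1.23, beside -0.01 over all genes tested. In bulk RNA, fewer cells of a type and less RNA per cell cannot be told apart. DPPA3, the remaining member, had at most 3.13 reads in a library and was not tested.

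POU5F1, a core pluripotency transcription factor, had 5719 and 3792 reads in replicates 1 and 2 of the FOXO4 experiment and 17901 and 23679.8 in those of the SP6 experiment. NANOG, another core factor, stood at 75.4 and 27.0 against 367 and 665. SOX2, their partner on DNA, stood at 197 and 94.0 against 1140.1 and 1969. In all 3 genes both SP6-experiment libraries lay above both FOXO4-experiment libraries, and replicate 2 was the lowest of the 4 in the FOXO4 experiment and the highest in the SP6 experiment. The differences were -2.14 (SE 0.18) for POU5F1, -3.42 (SE 0.42) for NANOG and -3.45 (SE 0.33) for SOX2, with limma adjusted p-values of 2.41e-05, 0.000174 and 4.22e-05. Leaving out each library in turn gave -2.44 to -1.85 for POU5F1 and -3.98 to -2.92 for SOX2. NANOG stood at -4.14 without replicate 1 of the FOXO4 experiment and at -2.70 without its replicate 2.

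Several signalling genes of the list, and USP44, went the same way. TDGF1, a co-receptor for NODAL, had 323 and 129 reads in the FOXO4 experiment and 2023 and 3328 in the SP6 experiment, a difference of -3.66 (SE 0.36; limma adjusted p = 5.47e-05). SFRP2, a secreted WNT modulator, had 237 and 137 against 868 and 1176 (limma adjusted p = 4.08e-05). USP44, a deubiquitinase that is abundant in hESC, had 71.3 and 58.3 against 580.5 and 1368, the difference being -3.77 (SE 0.32; limma adjusted p = 2.66e-05). None of the 3 overlapped between experiments. TDGF1 stood at -4.32 without replicate 1 of the FOXO4 experiment and -3.00 without its replicate 2, and USP44 at -4.39 and -3.15 without replicates 1 and 2 of the SP6 experiment. The growth factors FGF4 and GDF3 were scarce in the FOXO4 experiment, at 4.13 and 1.08 and at 21.7 and 4.32 reads, against 17.7 and 30.6 and 63.6 and 68.3, and both lost their call without replicate 2 of the SP6 experiment (limma adjusted p = 0.055 and 0.076), GDF3 also without replicate 1 (0.062). Without replicates 1 and 2 of the FOXO4 experiment, FGF4 stood at -3.55 and -2.24, and GDF3 at -3.65 and -1.56.

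Among the other regulators, FOXD3 had 3.10 and 0 reads in the FOXO4 experiment and 39.6 and 82.6 in the SP6 experiment, DPPA2 had 17.6 and 5.40 against 139.6 and 219, and PRDM14 had 24.8 and 14.05 against 127 and 213. These are a forkhead factor, a chromatin-associated protein and a PR domain factor, and in each the experiments did not overlap (limma adjusted p = 0.000438, 0.000128 and 9.97e-05). FOXD3 rests on 3 reads in the FOXO4 experiment, so that the size of its difference is set by the pseudocount. Without replicates 1 and 2 of the FOXO4 experiment, FOXD3 stood at -5.86 and -3.83 and DPPA2 at -4.78 and -3.25. DNMT3B, a de novo DNA methyltransferase, differed less, with 7186 and 5952 against 12951 and 17149 (difference -1.19, SE 0.13, limma adjusted p = 8.98e-05).

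A few members stood almost level. LIN28A, an RNA-binding repressor of let-7, had 34356 and 30556 reads against 41246 and 44184, a difference of -0.40 (SE 0.08; limma adjusted p = 0.00335, 0.074 without replicate 2 of the FOXO4 experiment). ZFP42, a zinc finger factor, had 2921 and 2429 against 3359 and 3144 and passed at an adjusted p of 0.025 in limma, but lost the call when any of 3 libraries was left out (0.078 to 0.23). SALL4, a zinc finger factor, had 2598 and 2642 against 2400.1 and 2463 and was not called (limma adjusted p = 0.191). LIN28B, the paralog of LIN28A, was the member higher in the FOXO4 experiment, with 3311 and 3127 against 2664 and 2453 (difference 0.33, SE 0.07, limma adjusted p = 0.00391). The other members higher in the SP6 experiment ran from DPPA4, a nuclear partner of DPPA2 (1920.1 and 1499.6 reads against 5268 and 8365, difference -1.97), through VRTN, ZSCAN10, TRIM71, L1TD1 and TERF1 to FGF2 (-0.52) and POLR3G (-0.48). FGF2 lost its call without replicate 2 of the FOXO4 experiment or either library of the SP6 experiment (limma adjusted p = 0.21, 0.058 and 0.28), and POLR3G without replicate 2 of the FOXO4 or of the SP6 experiment (0.20 and 0.37). NODAL, the ligand, and LEFTY2, its antagonist, were not called (0.23 and 0.29, limma adjusted p = 0.57 and 0.0892), though LEFTY2 was called higher in the FOXO4 experiment without replicate 2 of the SP6 experiment (0.46, adjusted p = 0.042). The LIN28B call was lost on the values as deposited (difference 0.10) and under quantile normalization (0.13).

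**Figure D1:**
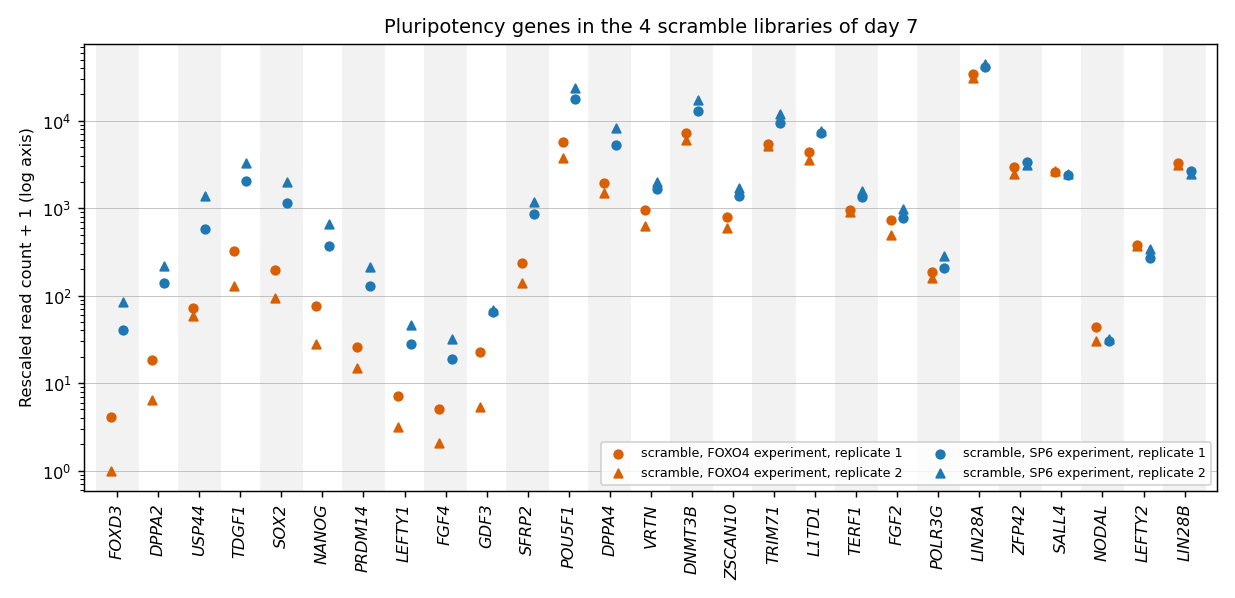
Rescaled read count + 1 (log axis) of the 27 tested pluripotency genes, 1 point per library, ordered from the lowest to the highest difference between the experiments. From FOXD3 to SFRP2 the SP6-experiment points lie clearly above the FOXO4-experiment points, while LIN28A, ZFP42, SALL4 and LIN28B at the right stand close together.

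The replicates of each experiment also differed within the list. Replicate 1 of the FOXO4 experiment was above replicate 2 at 26 of 27 genes, beside 50.2% of all genes tested. In the SP6 experiment, replicate 2 was above replicate 1 at 25 of 27, beside 48.2% of all genes tested. The same order of the 4 libraries, from FOXO4-experiment replicate 2 through replicate 1 and SP6-experiment replicate 1 to replicate 2, was seen at 22 of the 27 genes and at 15.64% of all genes tested. Replicates differed by 2-fold or more at SOX2, NANOG, TDGF1, DPPA2, GDF3, LEFTY1 and FGF4 in the FOXO4 experiment and at USP44 and FOXD3 in the SP6 experiment. FOXD3 also had reads in only 1 library of the FOXO4 experiment. These rest on counts given above except LEFTY1, a NODAL antagonist, with 6.20 and 2.16 reads against 27.1 and 44.9. LEFTY1 stood at -3.51 and -2.32 without replicates 1 and 2 of the FOXO4 experiment, beside -2.91 with both.

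Set against unmodified hESC on a scale common to the 12 libraries without a gene-directed hairpin, the list stood at a median of 61.8% of the hESC level in unmodified day 3 cells. The day 3 scramble cultures stood at 38.4% in the FOXO4 experiment and 58.0% in the SP6 experiment. At day 7 the medians were 10.97% in the FOXO4 experiment (15.9% and 8.73% in its libraries) and 45.2% in the SP6 experiment (40.6% and 54.5%). At day 7, 12 of the 27 genes were below 10% of hESC in the FOXO4 experiment and 1 in the SP6 experiment. POU5F1 stood at 10.97% and 45.2% of hESC, NANOG at 2.73% and 25.9%, and SOX2 at 2.21% and 22.2%, the FOXO4 experiment first in each. LIN28A kept 78.3% and 97.2%. By their means, POU5F1 and SOX2 were higher at day 7 than at day 3 in the SP6 experiment, at 19580.4 against 12568 reads and at 1463 against 1201. For SOX2, only replicate 2 of the SP6 experiment at day 7 lay above that day 3 mean. In the FOXO4 experiment POU5F1 went from 15292 at day 3 to 4750.1 at day 7. The libraries of the 2 days came from separate tables.

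**Figure D2:**
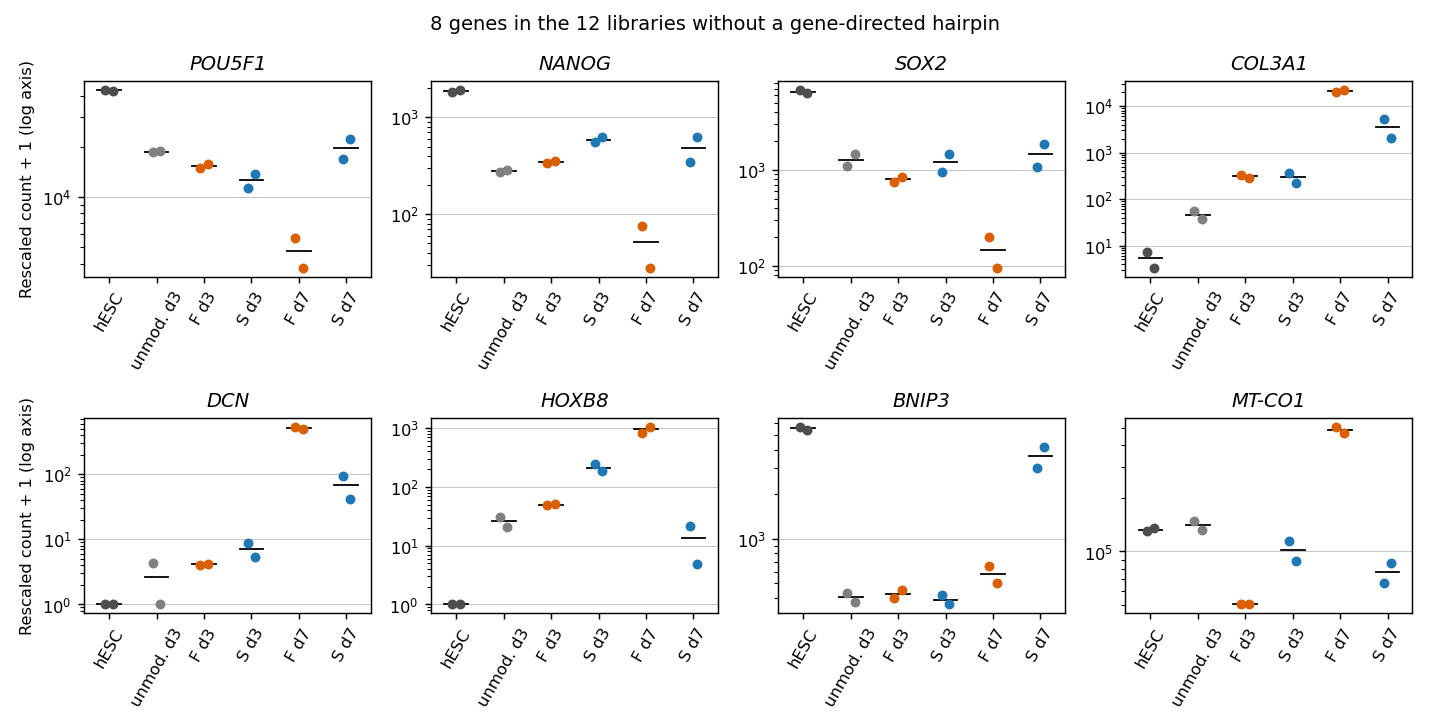
Rescaled read count + 1 (log axis) of 8 genes in the 12 libraries without a gene-directed hairpin, with 1 point per library and a bar at the group mean. F and S stand for the scramble cultures of the FOXO4 and the SP6 experiment, d3 and d7 for day 3 and day 7, and unmod. for unmodified cells. POU5F1, NANOG and SOX2 are lowest in F at day 7, and COL3A1, DCN, HOXB8 and MT-CO1 are highest there.

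The mesenchymal matrix differed in part only. Of 35 matrix genes tested, 15 were higher in the FOXO4-experiment cultures (9 by at least 2-fold), 8 were higher in the SP6-experiment cultures (2 by at least 2-fold) and 12 were not called. The median difference was 0.11, beside -0.01 over all genes tested. On the values as deposited the split was 11 higher in the FOXO4 experiment and 12 in the SP6 experiment, with a median of -0.12, so that no direction is given for the list as a whole. Without replicate 2 of the SP6 experiment, 14 were higher in the FOXO4 experiment and 5 in the SP6 experiment.

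The largest differences toward the FOXO4 experiment among the tested matrix genes were at COL6A3, DCN and COL3A1. COL3A1, the chain of the fibrillar type III collagen, had 20105 and 22389.5 reads in the FOXO4 experiment and 5505 and 2195 in the SP6 experiment. COL6A3, a chain of type VI collagen, had 1535 and 1288 against 291 and 87.7. DCN, the proteoglycan decorin, which binds collagen fibrils, had 540.2 and 501 against 96.9 and 43.9. Both FOXO4-experiment libraries were above both SP6-experiment libraries in each, and replicate 2 of the SP6 experiment was the lowest library in each. The differences were 2.61 (SE 0.32), 3.13 (SE 0.42) and 2.98 (SE 0.30), at limma adjusted p-values of 0.000163, 0.000265 and 5.91e-05. Without replicate 2 of the SP6 experiment they were 1.95, 2.27 and 2.41, and without its replicate 1 they were 3.27, 3.99 and 3.54.

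COL12A1, a collagen that associates with fibrils, had 339.8 and 543 reads against 121 and 60.2 (difference 2.32, SE 0.31, limma adjusted p = 0.000283). LUM, the proteoglycan lumican, had 1329 and 1401 against 642 and 384 (1.46, SE 0.19, limma adjusted p = 0.000247). TNC, the matrix glycoprotein tenascin C, had 5303 and 6499 against 2713 and 1954 (1.35, SE 0.15, limma adjusted p = 8.14e-05). The matrix protease MMP2, the protease inhibitor TIMP3 and COL5A1, a chain of type V collagen, were the other members higher by at least 2-fold in the FOXO4 experiment, at differences of 1.2997, 1.23 and 1.08. MMP2 had 2994 and 3054 reads against 1262 and 1195 and stood apart by much more than its replicates did (SE 0.07; limma adjusted p = 3.75e-06). Smaller differences in that direction were at the fibulin FBLN1 (0.91), the fibrillins FBN1 (0.79) and FBN2 (0.30), COL5A2 (0.71), the microfibril protein MFAP2 (0.37) and the thrombospondin THBS1 (0.30). FBN1 lost its call without replicate 2 of the FOXO4 experiment or replicate 1 of the SP6 experiment (limma adjusted p = 0.099 and 0.11), FBN2 without replicate 2 of the FOXO4 or of the SP6 experiment (0.23 and 0.28), and THBS1 without any of 3 libraries (0.11 to 0.25).

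Type I collagen did not separate the experiments. COL1A1, which with COL1A2 forms type I collagen, had 23235 and 23763 reads in the FOXO4 experiment and 20134 and 27553 in the SP6 experiment, and the libraries of the SP6 experiment lay on either side of the others. Its difference was 0.00 on that scale (SE 0.13; limma adjusted p = 0.983), and it was 0.22 without replicate 2 of the SP6 experiment (adjusted p = 0.0384) and -0.23 without its replicate 1 (adjusted p = 0.031). COL1A2 had 3363 and 3959 against 3889 and 4561 and was not called (limma adjusted p = 0.105), but it was called higher in the SP6 experiment with a replicate block (adjusted p = 0.0325), on the values as deposited (0.00419) and without replicate 2 of the FOXO4 experiment (0.0442). SPARC, a collagen-binding glycoprotein, had 7338 and 7791 against 7344 and 7825, with the libraries of both experiments interleaved (limma adjusted p = 0.968), but it was called higher in the SP6 experiment on the values as deposited (difference -0.24, adjusted p = 0.0152) and under quantile normalization (-0.18, 0.0489).

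In the SP6-experiment cultures, 8 matrix genes were higher. FN1, fibronectin, had 9016 and 10533 reads in the FOXO4 experiment and 15445 and 14558 in the SP6 experiment (-0.62, SE 0.08, limma adjusted p = 0.000286). VCAN, the proteoglycan versican, had 2707 and 2454 against 3983 and 3946 (-0.62, SE 0.07, limma adjusted p = 0.000118). LOXL2, an enzyme that crosslinks collagen and elastin, had 502 and 577 against 951 and 1265 (-1.03, SE 0.13, limma adjusted p = 0.00024). These 3 did not overlap between experiments. COL6A1 and COL6A2, the partner chains of COL6A3, were thus higher where COL6A3 was lower, at -0.53 (SE 0.11, limma adjusted p = 0.00298) and -0.84 (SE 0.12, limma adjusted p = 0.000384). COL6A1 lost its call without replicate 1 of the SP6 experiment (limma adjusted p = 0.0532). ELN, elastin, had 13.4 and 15.1 against 28.1 and 49.0 and lost its call without replicate 2 of the SP6 experiment (difference -0.93, limma adjusted p = 0.15, against -1.32 and 0.0158 with it). FBLN5 and FBLN2, fibulins, completed the 8 (-0.92 and -0.22, limma adjusted p = 0.0358 and 0.0424), and each lost its call without any of 3 libraries (0.073 to 0.22). Of the members not called, THBS2 and LOX were scarce and differed by over 2-fold within an experiment, with 5.16 and 12.96 against 15.6 and 30.6 reads for THBS2 and 12.4 and 6.48 against 10.4 and 31.6 for LOX, a collagen crosslinking enzyme. THBS2 was called higher in the SP6 experiment without replicate 2 of the FOXO4 experiment (-1.90, limma adjusted p = 0.02). MFAP5 was called higher in the FOXO4 experiment without replicate 1 of the SP6 experiment (1.303, limma adjusted p = 0.0496). POSTN, BGN, COL14A1, LOXL1, MFAP4 and PCOLCE stood between -0.39 and 0.25.

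**Figure D3:**
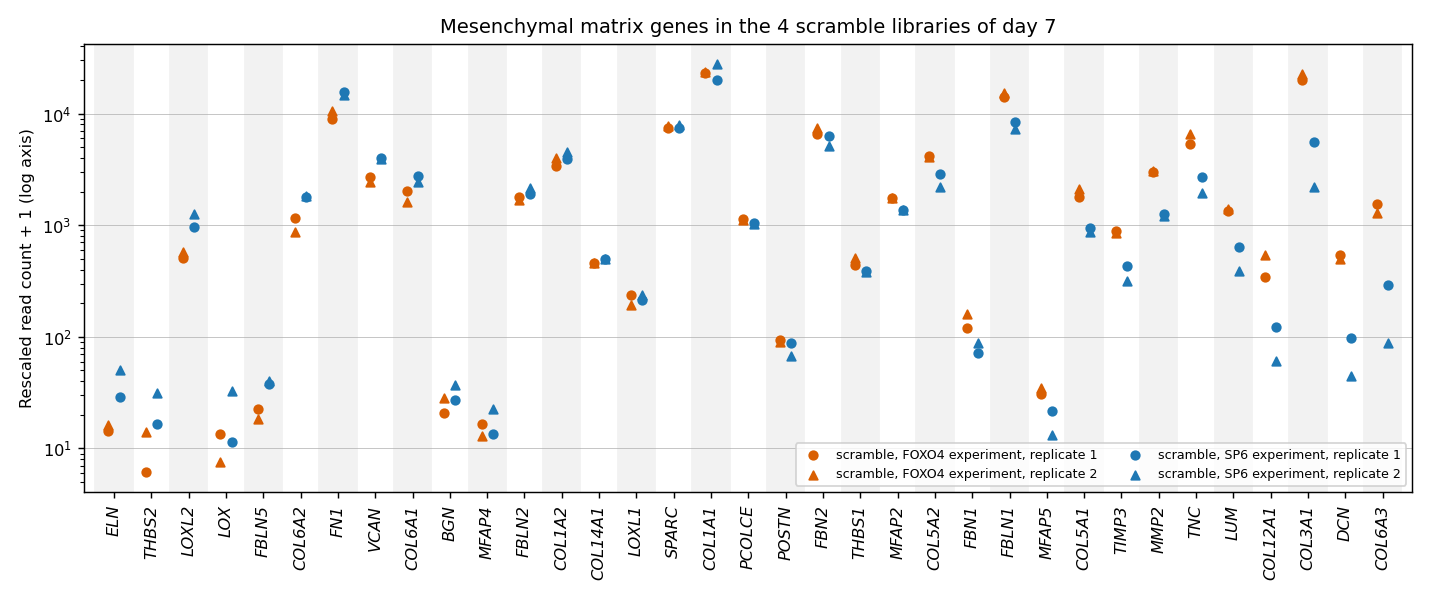
Rescaled read count + 1 (log axis) of the 35 tested mesenchymal matrix genes, 1 point per library, ordered from the lowest to the highest difference. COL1A1, COL1A2 and SPARC in the middle overlap, and from COL5A1 to COL6A3 at the right the FOXO4-experiment points lie above the SP6-experiment points.

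Against unmodified hESC, the median matrix gene stood at 109.8% in the FOXO4 experiment and 80.2% in the SP6 experiment at day 7, over the 31 genes with an hESC level of at least 10. By library the medians were 113.4% and 110.4% in the FOXO4 experiment and 102.9% and 77.8% in the SP6 experiment. Replicate 1 of the SP6 experiment thus stood nearer to the FOXO4-experiment libraries than to its own replicate 2. LUM and DCN were listed at 0 in both hESC libraries and reached means of 1363 and 520.0 reads in the FOXO4 experiment and 484 and 66.4 in the SP6 experiment. COL3A1 went from a mean of 4.27 reads in hESC to 306 and 292 in the day 3 scramble cultures, where the experiments were not told apart (difference 0.11, limma adjusted p = 0.828). COL1A1 already stood at 21799 and 27925 at day 3.

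Of 13 regulators and surface markers of mesenchymal cells tested, 3 were higher in the FOXO4 experiment, 4 were higher in the SP6 experiment and 6 were not called, with a median of -0.13. These counts are near the shares over all genes. TWIST1, a factor of mesenchymal and neural crest cells, had 95.02 and 106 reads against 49.0 and 36.7 (difference 1.22, SE 0.24, limma adjusted p = 0.00227). The cadherin CDH2 was also higher in the FOXO4 experiment (0.79, limma adjusted p = 0.00163), and CDH11 passed (0.98, limma adjusted p = 0.0172) but lost the call without any of 3 libraries (0.059 to 0.092). SNAI1, a repressor of epithelial genes, had 50.6 and 50.8 against 116 and 131, and the growth factor receptor PDGFRA had 44.4 and 42.1 against 102 and 89.8, so both were higher in the SP6 experiment (-1.26 and -1.13, limma adjusted p = 0.000792 and 0.00239). VIM, a mesenchymal intermediate filament, had 158 and 198 against 301 and 332. PRRX1, FOXF1, NT5E and ZEB1 had at most 8.26 reads in a library and were not tested.

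Mitochondrially encoded mRNAs took 7.47% and 7.17% of the counts in the FOXO4-experiment cultures and 1.31% and 1.55% in the SP6-experiment cultures. Both FOXO4-experiment libraries were the higher ones, 5.11 times higher in the mean, with a difference of 5.89 percentage points. An exact permutation test of 2 libraries against 2 (two-sided) cannot go below p = 0.3333, which is the value it gave. With the mitochondrial ribosomal RNAs added, the difference was 6.73 points. These shares are within a library and do not depend on the scale set across tables.

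Among all 20 libraries, the FOXO4-experiment pair held the highest share of mitochondrial mRNA. With the ribosomal RNAs added, the highest was a FOXO4 knockdown library of day 7 at 9.05%, beside 8.90% and 8.55% in the pair. The knockdown cultures of the same experiment and day came next, at 6.001% and 5.56%. The knockdown cultures of the SP6 experiment at day 7 had 1.64% and 1.78%, close to their own controls. Unmodified hESC had 2.23% and 2.41%, and unmodified day 3 cells 3.38% and 3.02%. The order of the experiments was the opposite at day 3, where scramble cultures of the FOXO4 experiment had 1.08% and 1.07% and those of the SP6 experiment 2.36% and 1.83%.

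**Figure D4:**
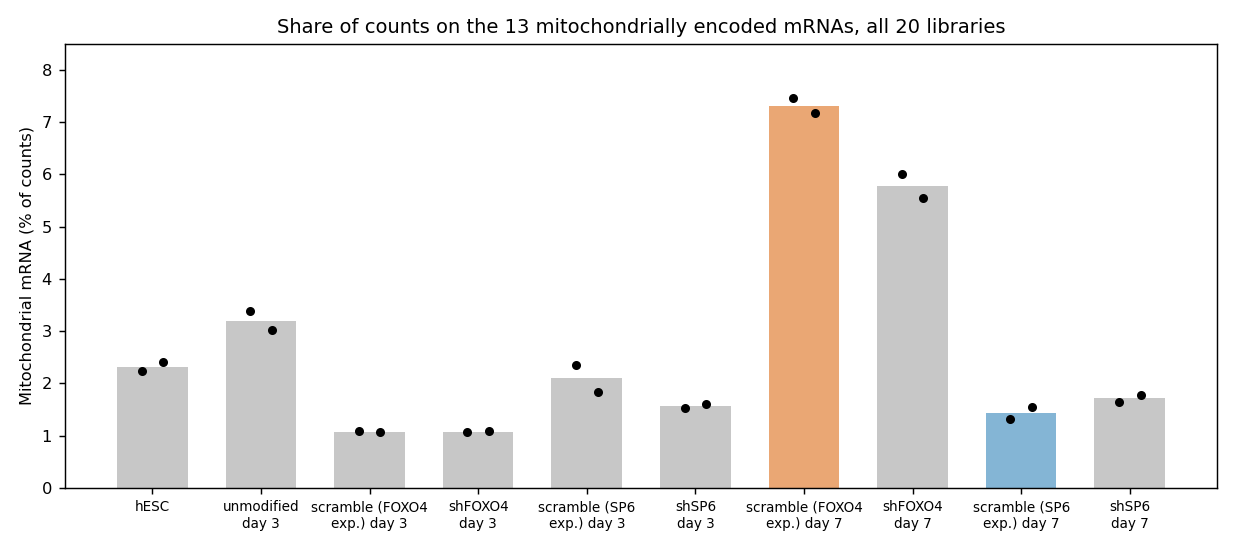
Share of counts (%) on the 13 mitochondrially encoded mRNAs in all 20 libraries, with 1 point per library and a bar at the group mean. The day 7 scramble cultures of the FOXO4 experiment (7.47% and 7.17%) are the highest and those of the SP6 experiment (1.31% and 1.55%) are below unmodified hESC.

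All 13 mitochondrial mRNAs were higher in the FOXO4-experiment cultures by at least 2-fold, with a median difference of 2.62 and without overlap. All 13 were also called when any 1 library was left out, with a median of 2.53 to 2.80. MT-CO1, a core subunit of cytochrome c oxidase, had 509641 and 471214 reads against 70274 and 91933 (2.61, SE 0.13, limma adjusted p = 3.13e-06). The smallest difference was at MT-CO2, another subunit of that enzyme, with 137428 and 129968 against 46544 and 47805 (1.502, SE 0.08, limma adjusted p = 4.13e-06). The largest was at MT-ND6, a subunit of complex I and the only mRNA encoded on the light strand, with 13064 and 13388 against 709.7 and 788 (4.14, SE 0.07, limma adjusted p = 1.16e-08). MT-ND6 made up 0.860% and 0.915% of the mitochondrial mRNA in the FOXO4 experiment and 0.299% and 0.280% in the SP6 experiment, so the messages did not move in 1 proportion. The library kit marks strand, but the strand setting of the counting is not given in the sources used here, so reads of MT-ND6 and of its opposite strand may not be separated. The ribosomal RNAs MT-RNR1 and MT-RNR2 were higher too, at 1.63 and 1.49 (limma adjusted p = 4.18e-05 and 2.29e-05), although kits that select polyadenylated RNA measure them only in part.

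The nuclear side of the respiratory chain went the other way. Of 29 nuclear genes for its subunits, 23 were higher in the SP6-experiment cultures, 2 in the FOXO4-experiment cultures and 4 were not called, with a median of -0.45. This direction was not particular to the list. The median was -0.68 for ribosomal protein genes and -0.19 for the shortest protein-coding genes. COX5B, a subunit of cytochrome c oxidase, had 1061 and 1076 reads against 2085 and 2021 (-0.94, SE 0.07, limma adjusted p = 1.58e-05). NDUFB8 of complex I (7.23 and 10.8 against 42.7 and 34.7) and ATP5PO of the ATP synthase (69.2 and 106 against 268 and 229) had the largest differences, at -2.003 and -1.52. Both had few reads for genes of this list. On the scale that includes hESC, ATP5PO averaged 105.9 reads in hESC, beside 15682 for ATP5F1A of the same enzyme. The reason for its low count was not tested. Of 19 nuclear genes that keep and transcribe the mitochondrial genome, 5 were higher in the FOXO4 experiment and 3 in the SP6 experiment, no more than the shares over all genes. The split was 0 and 9 on the values as deposited and 2 and 5 under quantile normalization, and with 1 library left out 1 to 3 were higher in each experiment, so the list has no direction. POLRMT, the mitochondrial RNA polymerase, had 2802 and 2619 against 1969.7 and 2087 (0.42, limma adjusted p = 0.00108), and was not called on the values as deposited (adjusted p = 0.054). PPARGC1B, a coactivator of mitochondrial genes, had 25.8 and 14.05 against 69.8 and 87.7 (-1.98, limma adjusted p = 0.00111).

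Glycolytic and hypoxia-responsive genes were higher in the SP6-experiment cultures. Of 25 tested, 23 were higher there, 14 by at least 2-fold, none was higher in the FOXO4-experiment cultures and 2 were not called (ANKRD37 and SLC2A1). The median was -1.05 (-1.25 to -0.92 without 1 library), and the order of the 4 libraries found at the pluripotency genes was found at 14 of 25. LDHA, the lactate dehydrogenase that ends anaerobic glycolysis, had 3932 and 4187 reads against 17288 and 24975. PGK1, which forms ATP in glycolysis, had 4109.7 and 4419 against 17210.0 and 26444. BNIP3, a mitophagy receptor induced by hypoxia, had 654 and 505 against 3197 and 4444. The 3 genes separated the experiments without overlap, by -2.36 (SE 0.14), -2.32 (SE 0.16) and -2.71 (SE 0.16), at limma adjusted p-values of 5.59e-06, 1.05e-05 and 5.15e-06.

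ADM, the peptide hormone adrenomedullin, had 291 and 227 reads against 1308 and 2265, and EGLN3, an oxygen sensor that hydroxylates HIF, had 79.5 and 69.1 against 346 and 607 (-2.74 and -2.61, limma adjusted p = 2.08e-05 and 3.67e-05). GAPDH, often used as a reference gene, had 38957 and 39435 against 58922 and 68195 (-0.69, SE 0.09, limma adjusted p = 0.000211). SLC2A1, a glucose transporter, had 18908 and 18915 against 19855 and 22649.5 (limma adjusted p = 0.104), but it was called higher in the SP6 experiment on the values as deposited (-0.40, adjusted p = 0.00219) and without replicate 1 of the SP6 experiment (-0.26, 0.0194). The list stood at a median of 38.4% of hESC in the FOXO4 experiment and 88.6% in the SP6 experiment at day 7, and at 42.4% and 53.2% at day 3. LDHA was at 14.1% and 69.4% of hESC at day 7.

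The promoters of the genes with the largest differences in the list are shown for the hypoxia response motif, whose core is ACGTG or GCGTG. Both strands of the 250 bases before the RefSeq start (build GRCh38.p14) were searched, and the sequences run 5′ to 3′ on the strand of the gene with matches in capitals. BNIP3 (chr10:131981924-131982173, minus strand) held 6 matches, of which a pair overlap as the forms of both strands, and ADM (chr11:10304823-10305072, plus strand) held 1.
BNIP3: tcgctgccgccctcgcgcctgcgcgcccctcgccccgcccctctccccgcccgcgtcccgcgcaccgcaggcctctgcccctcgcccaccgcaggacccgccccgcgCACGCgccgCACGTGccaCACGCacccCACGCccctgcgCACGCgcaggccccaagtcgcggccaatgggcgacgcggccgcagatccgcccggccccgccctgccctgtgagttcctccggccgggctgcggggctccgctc
ADM: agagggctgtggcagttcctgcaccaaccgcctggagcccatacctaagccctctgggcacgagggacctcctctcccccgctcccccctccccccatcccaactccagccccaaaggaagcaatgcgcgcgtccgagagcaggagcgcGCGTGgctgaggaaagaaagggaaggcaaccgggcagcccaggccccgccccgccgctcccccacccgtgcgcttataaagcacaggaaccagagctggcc
Of 35116 promoters of that length, 43.2% held at least 1 match and 0.646% at least 6. Of the 25 genes tested, 22 had a promoter in the RefSeq table and 13 of those held a match. EGLN3 held none, which says only that these letters are not in that window.

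Metallothioneins, small cysteine-rich proteins that bind zinc and copper, were scarce in the FOXO4-experiment cultures. Of 7 genes of the list tested, the 6 metallothioneins were higher in the SP6-experiment cultures and SLC30A1, a zinc exporter under the same metal-responsive factor, was not called (505 and 491 against 501 and 580.4 reads; limma adjusted p = 0.376, but 0.0179 on the values as deposited, higher in the SP6 experiment). MT1G had 3.10 and 3.24 reads against 145 and 523. MT1E had 5.16 and 2.16 against 153 and 341. MT2A, the most widely expressed member, had 39.2 and 19.4 against 205 and 414. In each, both SP6-experiment libraries were far above the others and replicate 2 was the highest. The differences were -6.05 (SE 0.52) for MT1G, -5.70 (SE 0.46) for MT1E and -3.35 (SE 0.38) for MT2A, with limma adjusted p-values of 2.74e-05, 2.08e-05 and 0.000109. MT1G stood at -6.97 and -5.13 without replicates 1 and 2 of the SP6 experiment.

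MT1H had 2.07 and 0 reads in the FOXO4 experiment and 73.0 and 244 in the SP6 experiment, and MT1F had 2.07 and 6.48 against 42.7 and 67.3. MT1H, MT1G and MT1E rest on 0 to 5 reads in each library of the FOXO4 experiment, so the size of their differences depends on the pseudocount. MT1X had no read in either FOXO4-experiment library and 16.7 and 29.6 in the SP6 experiment, at least 14.6-fold lower against a floor of 3 counts over the group, which covers counting error only. MT1G, MT1E, MT1H, MT1F and MT1X passed the filter on the mean only through the SP6 experiment. At a mean of at least 50, 5 genes of the list were tested and 4 were higher in the SP6 experiment. The median of the list was -4.54, and -3.87 with MT1X at that bound. It was -5.51 at a pseudocount of 0.5, -3.17 at a pseudocount of 5, -3.03 under quantile normalization and -6.01 in edgeR, so the direction held under these settings and the size did not. As a share of hESC the list median was 0.348% in the FOXO4 experiment and 17.7% in the SP6 experiment, so both were below the stem cells. At day 3 the metallothioneins were low in both scramble cultures, with means of 22.9 and 20.54 reads for MT2A beside 1643 in hESC. The MT1 genes are near-identical copies, so reads may be split between them in a way the files do not show.

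The metallothionein promoters carry the metal response motif, here TGCACNC or TGCGCNC on either strand (N stands for any base), in capitals in the 250 bases before the RefSeq start on GRCh38.p14, plus strand of chromosome 16 in all 3. MT1X (chr16:56682220-56682469) held 4 matches, MT2A (chr16:56608334-56608583) 7 and MT1H (chr16:56669564-56669813) 8.
MT1X: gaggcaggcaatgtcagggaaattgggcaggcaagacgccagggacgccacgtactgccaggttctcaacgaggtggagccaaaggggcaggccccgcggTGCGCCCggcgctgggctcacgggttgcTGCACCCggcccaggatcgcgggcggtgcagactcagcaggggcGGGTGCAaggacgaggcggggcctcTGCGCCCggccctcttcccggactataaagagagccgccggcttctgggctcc
MT2A: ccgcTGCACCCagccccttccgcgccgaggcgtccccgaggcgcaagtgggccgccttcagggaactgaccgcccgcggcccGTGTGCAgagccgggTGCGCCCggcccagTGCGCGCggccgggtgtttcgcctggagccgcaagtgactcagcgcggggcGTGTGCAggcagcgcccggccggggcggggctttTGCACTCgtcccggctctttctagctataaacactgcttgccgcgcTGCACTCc
MT1H: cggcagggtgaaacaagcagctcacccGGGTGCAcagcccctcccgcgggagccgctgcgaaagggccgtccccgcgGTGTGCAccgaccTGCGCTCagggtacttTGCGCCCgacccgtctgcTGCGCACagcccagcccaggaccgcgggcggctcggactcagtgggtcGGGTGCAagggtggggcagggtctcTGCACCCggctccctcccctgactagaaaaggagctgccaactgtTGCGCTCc
At least 1 match was in 24.8% of the 35116 promoters, at least 4 in 0.37% and at least 6 in 0.0513%. All 4 genes of the list with a promoter in the table held a match. A match is a description of the letters and was not tested as a site.

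Most HOX genes were higher in the FOXO4-experiment cultures. Of 23 tested, 20 were higher in the FOXO4-experiment cultures, 19 by at least 2-fold, 1 was higher in the SP6-experiment cultures and 2 were not called, with a median of 2.01 (1.58 to 2.41 without 1 library). Some, such as HOXC6 and HOXA9, passed the filter on the mean only through the FOXO4 experiment. At a mean of at least 50, 17 were tested, with 14 higher in the FOXO4 experiment and 1 in the SP6 experiment. HOXB8 had 839.7 and 1059.9 reads in the FOXO4 experiment and 21.9 and 4.08 in the SP6 experiment (6.45, SE 0.55, limma adjusted p = 2.54e-05). HOXC6 had 181 and 187 against 9.38 and 3.06 (4.83, SE 0.43, limma adjusted p = 3.11e-05), and HOXA9 had 101 and 107 against 9.38 and 2.04 (4.23, SE 0.53, limma adjusted p = 0.000193). In these 3 the SP6-experiment libraries held few reads, with replicate 2 the lower. Without replicates 1 and 2 of the SP6 experiment, HOXB8 stood at 7.54 and 5.37, HOXC6 at 5.51 and 4.15, and HOXA9 at 5.11 and 3.34. The clusters also hold antisense transcripts, whose reads may not be separated here.

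Genes at the start of the clusters did not share 1 direction. HOXB1 had 3763 and 3722 reads against 3058 and 2701 (difference 0.38, limma adjusted p = 0.00243) and HOXD1 was higher in the SP6 experiment, with 60.9 and 54.0 against 124 and 143 (-1.20, limma adjusted p = 0.00097). HOXA3 had 1757 and 1980.4 against 314 and 232 (2.79, SE 0.14, limma adjusted p = 2.8e-06). HOXB4 was not called (269 and 285 against 319 and 349.9; limma adjusted p = 0.0808), but it was called higher in the SP6 experiment on the values as deposited (-0.50, adjusted p = 0.00564). On those values the HOXB1 call was lost (0.15, adjusted p = 0.138). The highest mean of a HOX gene in unmodified hESC was 7.16 reads, at HOXB1, over the HOX genes present in all tables, and the day 3 scramble cultures differed in the other direction at HOXB8 (-2.09, limma adjusted p = 0.00994) and HOXB9 (-2.10, 0.00375; 3.47 at day 7, and 4.28 and 2.66 without replicates 1 and 2 of the SP6 experiment), with a list median of -0.24.

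The surface ectoderm factors were on in both cultures and higher in the FOXO4 experiment. Of 26 tested, 16 were higher there, 9 by at least 2-fold, 1 was higher in the SP6 experiment and 9 were not called, with a median of 0.56 (13 and 3 on the values as deposited, with a median of 0.33). TFAP2A, a pioneer of surface ectoderm, had 10249.9 and 9607 reads against 4614 and 3555 (1.29, SE 0.11, limma adjusted p = 2.56e-05). GATA3, which acts in early surface ectoderm and in trophoblast, had 10127 and 8537 against 4428 and 3523 (1.23, SE 0.11, limma adjusted p = 3.84e-05). MSX1, a BMP-responsive homeobox factor, had 4847 and 3927 against 1299.6 and 625 (2.27, SE 0.27, limma adjusted p = 0.000128). All 3 were far above hESC, where their means were 5.43, 3.93 and 1.68 reads.

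Among single factors of the list, GRHL2 and TP63 were not called. GRHL2, which drives epithelial genes, had 2321 and 2145 reads against 2358 and 1991 (limma adjusted p = 0.719), and TP63, the master factor of stratified epithelium, had 551 and 456 against 458 and 410.1 (limma adjusted p = 0.17). GRHL3, a factor of epidermal barrier formation, was the member higher in the SP6 experiment, with 1209 and 960.5 against 2215 and 1712 (-0.85, SE 0.14, limma adjusted p = 0.000719). TFAP2C had 3308 and 2362 against 2051 and 1566 (0.64, limma adjusted p = 0.00787) and lost its call without replicate 2 of the SP6 experiment (0.45, adjusted p = 0.126), and on the values as deposited (0.41, 0.0549). Of the genes targeted in the study, FOXO4 had 1303 and 1090.1 against 1385 and 1109.9 and was not called (limma adjusted p = 0.712), while SP6 had 5655 and 5261 against 3732 and 2802 (0.75, SE 0.12, limma adjusted p = 0.000624).

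Genes of simple epithelium were on in both cultures. Of 34 simple epithelial genes, 16 were higher in the FOXO4 experiment, 5 in the SP6 experiment and 13 were not called, with a median of 0.25. On the values as deposited the split was 9 and 10 with a median of 0.01, so no direction is given for the list. Without replicate 1 of the SP6 experiment 2 were higher in the SP6 experiment, without replicate 2 of the FOXO4 experiment 3, and without replicate 2 of the SP6 experiment 7. KRT8, a keratin of simple epithelium, had 90456 and 96848 reads against 97529 and 88794, beside a mean of 9272 in hESC, and KRT18, its partner, had 6599 and 7424 against 8699.8 and 6697. Neither was called (limma adjusted p = 0.946 and 0.381), but under quantile normalization both were called higher in the SP6 experiment, KRT8 at -0.66 (adjusted p = 0.000817) and KRT18 at -0.32 (0.0387). KRT18 was also called so without replicate 2 of the SP6 experiment (-0.31, adjusted p = 0.0393). KRT7, another simple keratin, had 21489 and 23350.0 against 14693 and 10476 (0.85, SE 0.13, limma adjusted p = 0.000657), and DSP, which anchors desmosomes, had 40724 and 45079 against 25567 and 17484 (1.02, limma adjusted p = 0.000447). Epithelial CDH1 had 16419 and 15787 against 12884 and 11084 (0.43, limma adjusted p = 0.00194; 0.20 and 0.0749 on the values as deposited).

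Of 14 stratified epithelial genes tested, 5 were higher in the FOXO4 experiment, 2 in the SP6 experiment and 7 were not called (5 and 4 on the values as deposited, 5 and 1 without replicate 2 of the SP6 experiment). COL17A1, a hemidesmosomal collagen, had 142 and 182 reads against 24.0 and 18.4 (2.87, SE 0.26, limma adjusted p = 3.28e-05), and LAMB3, a chain of the epithelial laminin, had 184 and 163 against 78.2 and 52.0 (1.43, limma adjusted p = 0.0007). PKP1, a desmosomal plakophilin, was higher in the SP6 experiment, with 63.0 and 37.8 against 304 and 220.3 (-2.38, limma adjusted p = 9.82e-05). Of the defining keratins of stratified epithelium, KRT5 and KRT14 are not reported here, and KRT15 had at most 17.3 reads.

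**Figure D5:**
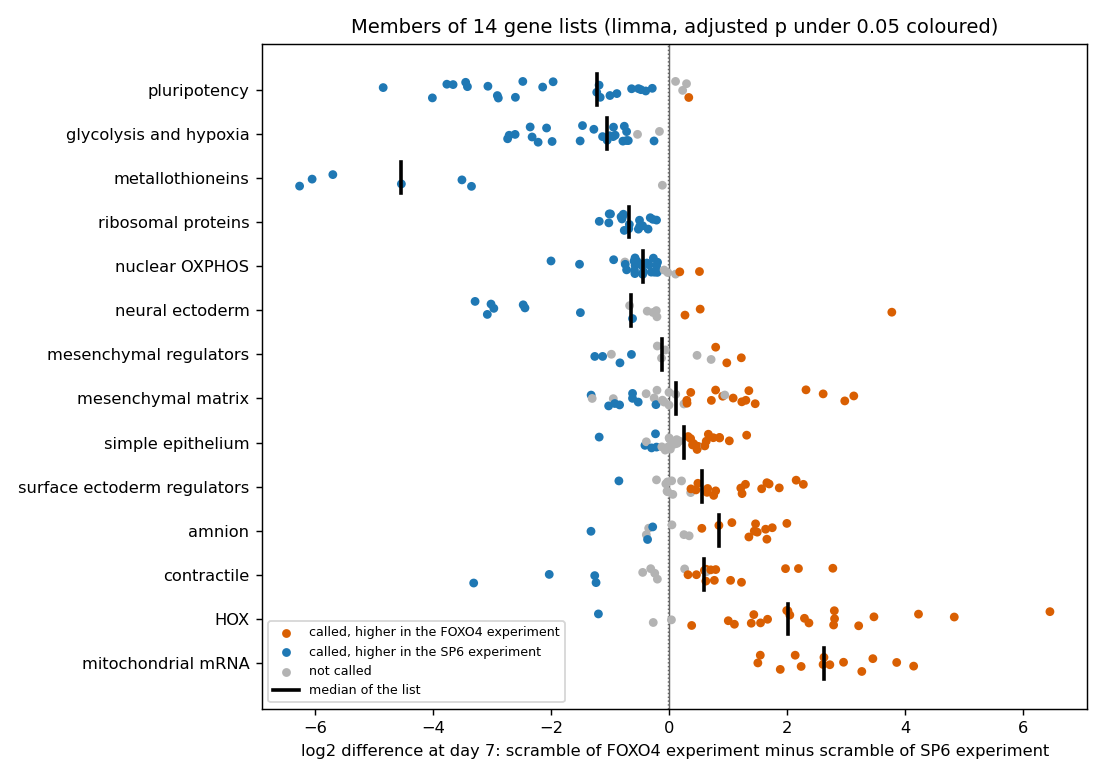
Difference of each tested member of 14 gene lists on the log2(level + 1) scale, FOXO4-experiment scramble cultures minus SP6-experiment scramble cultures at day 7, with a bar at the median of each list and colour for genes called by limma. With a pseudocount of 1, medians run from -4.54 for metallothioneins through -1.23 for pluripotency and 0.11 for mesenchymal matrix to 2.62 for mitochondrial mRNA.

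Genes of neighbouring lineages were also unequal. Of 19 amnion genes, 11 were higher in the FOXO4 experiment and 3 in the SP6 experiment (11 and 5 on the values as deposited, 10 and 1 without replicate 1 of the SP6 experiment, 10 and 5 without its replicate 2). GABRP, a GABA receptor subunit, had 12253 and 13681 reads against 4129 and 2557 (1.99, limma adjusted p = 3.15e-05), and NR2F2, a nuclear receptor, had 2293 and 2621 against 811 and 657 (1.75, limma adjusted p = 7.4e-06). Of 7 trophoblast genes, 4 were higher in the FOXO4 experiment and none in the SP6 experiment (4 and 1 on the values as deposited). CYP19A1, the aromatase, stood at 63.0 and 97.2 against 13.5 and 8.16 (2.78, limma adjusted p = 0.000263).

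Of 16 neural ectoderm genes, 8 were higher in the SP6 experiment and 3 in the FOXO4 experiment. ZIC2, a zinc finger factor that hESC also express, had 59.9 and 37.8 reads against 289 and 585 (-3.08, limma adjusted p = 7.21e-05), and ZIC5, its relative, had 21.7 and 11.9 against 107 and 176 (-3.02, limma adjusted p = 0.000132). DLK1, an imprinted NOTCH ligand homologue, went the other way with 2317 and 2226 against 232 and 117 (3.77, SE 0.25, limma adjusted p = 8.51e-06). Of 12 neural crest genes, 3 were higher in the FOXO4 experiment and 6 in the SP6 experiment, with a median of -0.12. FOXD3 and TWIST1 of this list were also counted in lists above. The neural crest factor SOX10 had 23.8 and 21.6 against 119 and 155 (-2.53, limma adjusted p = 5.52e-05). How far other cell types in the cultures take part in these differences was not tested.

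Of 11 mesoderm genes, 3 were higher in each experiment (1 in the SP6 experiment when either of its libraries is left out). With all libraries in, the shares of 27.3% in each direction were near those over all genes tested (27.7% and 28%), so the mesoderm list did not stand out. Among its members, GATA6 had 912 and 921 reads against 315 and 337 (1.49, limma adjusted p = 7.31e-06). KDR, a VEGF receptor, had 221 and 134 against 692 and 1026 (-2.29, limma adjusted p = 6.96e-05). Of 23 contractile genes, 13 were higher in the FOXO4 experiment and 4 in the SP6 experiment (10 and 6 on the values as deposited, 8 and 3 without replicate 2 of the SP6 experiment). ACTC1, cardiac actin, had 3414 and 3976 against 974 and 667 (2.19, limma adjusted p = 1.16e-05), and TNNI3, cardiac troponin I, had 10.3 and 2.16 against 50.02 and 68.3 (-3.31, limma adjusted p = 0.00117). Without replicates 1 and 2 of the FOXO4 experiment, TNNI3 stood at -4.23 and -2.39.

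Targets of signalling pathways were uneven too. Of 13 WNT targets, 8 were higher in the FOXO4 experiment and 1 in the SP6 experiment. CDX1, a caudal-type homeobox factor, had 941 and 962 reads against 126 and 59.2 (3.44, SE 0.28, limma adjusted p = 2.08e-05), and LEF1, a transcription factor of the pathway, had 578 and 673 against 102 and 54.1 (3.05, SE 0.25, limma adjusted p = 2.39e-05). Of 16 BMP targets, 8 were higher in the FOXO4 experiment and 2 in the SP6 experiment. TBX2, a T-box repressor, had 275 and 378 against 27.1 and 13.3 (4.01, limma adjusted p = 2.07e-05), whereas ID1 and ID3, immediate targets of SMADs, were higher in the SP6 experiment (-0.75 and -1.05, limma adjusted p = 0.000116 and 5.97e-06). Of 16 retinoic acid targets, 7 were higher in the FOXO4 experiment and 6 in the SP6 experiment (3 and 8 on the values as deposited, 4 and 5 without replicate 2 of the SP6 experiment), with the retinoic acid hydroxylase CYP26B1 at 207 and 394 against 18.8 and 23.5 and the binding protein CRABP1 at 155 and 89.7 against 700.3 and 988 (3.70 and -2.81, limma adjusted p = 2.27e-05 and 2.86e-05).

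Of 16 imprinted genes, 9 were higher in the FOXO4 experiment and 1 in the SP6 experiment (6 and 3 on the values as deposited). IGF2, a fetal growth factor, had 133421 and 140037 reads against 25972 and 18032 (2.66, SE 0.15, limma adjusted p = 4.07e-06), while H19, which lies beside it and is expressed from the other parental allele, had 232 and 239.9 against 251 and 197 and was not called (limma adjusted p = 0.656). IGF2 shares exons with the readthrough gene INS-IGF2, so its reads may be split. Of 6 inhibitors of the cell cycle, 5 were higher in the FOXO4 experiment (3 on the values as deposited). CDKN2B, which encodes p15, had 71.3 and 214 against 10.4 and 10.2 (3.46, SE 0.46, limma adjusted p = 0.000261), with its replicates in the FOXO4 experiment far apart (4.25 and 2.68 without replicates 1 and 2). Of 27 proliferation genes, 10 were higher in the FOXO4 experiment, 3 in the SP6 experiment and 14 were not called, none by 2-fold. The proliferation split was 4 and 9 on the values as deposited, 7 and 9 under quantile normalization and 6 and 3 without replicate 2 of the FOXO4 experiment, so no direction is given. Of 11 antigen presentation genes, 6 were higher in the SP6 experiment and 1 in the FOXO4 experiment.

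All 20 ribosomal protein genes tested were higher in the SP6-experiment cultures, 3 by at least 2-fold, with a median of -0.68, and 16 to 20 of them were called when 1 library was left out. Processed pseudogenes, copies of spliced messages that are mostly silent, moved much further. Of 576 tested, 451 were higher in the SP6 experiment and 19 in the FOXO4 experiment, with a median of -2.64, beside a median of 0.03 over 13788 protein-coding genes. Their share of counts was 0.238% and 0.233% in the FOXO4 experiment and 0.596% and 0.576% in the SP6 experiment. In hESC and in the day 3 cultures without a gene-directed hairpin it was 0.309% to 0.401%. The day 7 knockdown cultures had 0.591% and 0.485% in the SP6 experiment and 0.3021% and 0.3002% in the FOXO4 experiment. In both experiments the knockdown cultures were thus nearer to their own controls than to those of the other experiment. EEF1A1, an elongation factor, had 297578 and 295358 reads against 388637 and 429917 (-0.46), while all 15 of its tested copies were higher in the SP6 experiment, at a median of -4.28. HNRNPA1P4 had 5.16 and 3.24 against 329 and 259, and RPSAP19 had 10.3 and 8.64 against 338 and 256. Both passed the filter on the mean only through the SP6 experiment, and others of the 576 may have done so. The copies are near-identical to their parents, so these counts may hold reads of the parents and are uncertain as levels of the copies. Among protein-coding genes the median difference also ran with the merged length of all annotated exons of a gene. It went from -0.19 in the shortest 1725 genes (up to 2413 bases) to 0.13 in the longest. The part of length or RNA quality in these differences was not tested.

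Ranked by size among genes with a mean level of at least 100 and without overlap, the 10 highest differences included HOXB8, MT-ND6, TBX2, RBP2, MT-ND1, DLK1, SCUBE1, CYP26B1 and BARX2. RBP2, a retinol-binding protein, had 199 and 303 reads against 24.0 and 9.18 (3.95, limma adjusted p = 6.18e-05). SCUBE1, a secreted EGF-domain protein, had 715 and 945 against 53.1 and 66.3, and BARX2, a homeobox factor, had 254 and 303 against 36.5 and 12.2. Without replicates 1 and 2 of the SP6 experiment, RBP2 stood at 4.598 and 3.30 and BARX2 at 4.39 and 2.89. The 10 lowest held MT1G, MT1E and 5 pseudogenes (HNRNPA1P4, EEF1A1P12, RPS3AP5, EEF1A1P9 and RPSAP19). The other members were RASGRP2, an exchange factor for RAP1, with 3.10 and 5.40 against 146 and 259, the long noncoding RNA MIAT, with 6.20 and 10.8 against 201.1 and 424, and PPP1R1B, a phosphatase inhibitor, with 12.4 and 8.64 against 276 and 468 (-5.25, -4.99 and -4.99, limma adjusted p = 1.4e-05, 1.81e-05 and 6.37e-06).

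Fewer genes were called between the scramble cultures of the same experiments at day 3. Of 16388 genes tested over the 8 scramble libraries, limma called 4538 (27.7%) between experiments at day 3, with 2324 (14.2%) higher in the FOXO4 experiment and 2214 (13.5%) higher in the SP6 experiment. The same 8-library fit called 9902 between experiments at day 7, 5465 higher in the FOXO4 experiment and 4437 in the SP6 experiment. The difference at day 7 departed from that at day 3 at 8020 genes (48.9%), upward at 4385 (26.8%) and downward at 3635 (22.2%), or at 3631 and 4369 with TMM factors. At day 3 the median difference was -0.45 for the pluripotency genes, -0.29 for the matrix genes, -0.03 for the glycolytic and hypoxia genes and 0.19 for the processed pseudogenes. For NANOG it was -0.77 (limma adjusted p = 0.147) and for POU5F1 0.30 (0.227), neither of them called. The 13 mitochondrial mRNAs had a median of -0.91 at day 3, opposite in sign to day 7. The day 7 median was 2.62 in the fit of the day 7 libraries alone and 2.69 in the 8-library fit. MT-CYB, a subunit of complex III, stood at -0.88 (limma adjusted p = 0.000441) on day 3 and 3.45 (limma adjusted p = 4.54e-08) on day 7.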

How the data were processed

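Total RNA of 20 libraries had been prepared with a stranded mRNA kit, per the labels. Per the submitters' processing notes, Trimmomatic 0.39, STAR 2.6.1, RSEM 1.3.0, DESeq2 1.20.0 and build hg19 were used; their order and settings, a filter on listed genes and the strand setting of the counting are not given in the sources used here. The deposited values are normalized counts per gene, a signal made by the authors by dividing the reads of each library by 1 factor, separately in each of 5 tables. Columns were tied to samples by the table and the column name. Dividing by the smallest step gave whole reads for 100% of values (tolerance 0.001 read), 17369800 to 19699973 reads in the day 7 scramble libraries. The GENCODE annotation, and a prepared table of gene names for identifiers not in it, gave symbols for 29758 of 31155 identifiers. Gene types and exon lengths came from GENCODE alone.

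The 4 libraries, over 26104 genes in both day 7 tables, were rescaled by median of ratios over genes with a mean of at least 10, with multipliers of 0.925, 0.925, 1.09 and 1.08. Differences of log2(level + 1) were tested with limma 3.58.1 (2 libraries against 2, moderated with a mean trend, Benjamini-Hochberg adjustment over the 16468 genes averaging 10 or more), and called at an adjusted p under 0.05. On simulated data for this comparison over 16468 genes with 200 changed, 83.5% of the genes changed by 1 and 100% of those changed by 2 on the log2 scale were called, and 0.0799% of unchanged genes. The changed genes were drawn from genes with higher counts, and all genes were given the same dispersion. Far fewer genes changed there than were called here. The rates therefore do not cover changed genes with few reads or the spread of these libraries. A fit over the 8 scramble libraries gave the day 3 comparison and the difference between days. Levels against hESC come from 12 libraries without a gene-directed hairpin, rescaled together. On the recovered reads, edgeR 4.0.16 called 9249 genes (4687 higher in the FOXO4 experiment, 4562 in the SP6 experiment), and DESeq2 1.42.0 called 7252. Scripts ran in R 4.3.3 and Python 3.11.15 (numpy 2.4.6, pandas 2.3.3). Promoters are RefSeq sequences on GRCh38.p14, which is not the build of the files.

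The cultures and the 39 lists (784 genes) were chosen with earlier results of these data known. Named are all members of the pluripotency, matrix and mitochondrial mRNA lists, 12 fixed surface epithelium genes and knockdown targets, the 10 highest and 10 lowest differences among called genes that average 100 reads or more and do not overlap, up to 4 called members of each other list, and 5 differences between days in each direction. Members named as not called or too low for the test, and ANKRD37, CDH1, CDH2, GAPDH, GRHL3, H19, HOXA3, HOXB1, HOXB4, HOXD1, ID1, MT1F, MT2A, PGK1, SLC2A1, SLC30A1 and VIM, were chosen after their values were seen. A few genes that the rule names are not reported here. Lists that the text does not describe (endoderm, blood and endothelium, YAP targets, chromatin, stress and interferon genes, polyA-minus histones and nuclear noncoding RNAs) are counted in the closing section. Alternatives changed the pseudocount, filter, scaling, samples, replicate block and tool, and their effect is given in the closing section.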

Additional observations from a re-analysis of the deposited data

Results flagged for a closer look

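The difference between the experiments departed most from day 3 to day 7 at 10 genes, named as the 5 largest in each direction. The test is the interaction of experiment and day in limma over the 8 scramble libraries, adjusted over all genes tested, and the levels are on the scale of those 8 libraries. Copies of EEF1A1 and RPS3A are near-identical to their parents and uncertain as levels of the copies.

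ZNF486, a zinc finger gene, had no read in either FOXO4-experiment library at day 3 against 709.6 and 631 in the SP6 experiment, and 378 and 384 against 357 and 336 at day 7, an interaction of 9.52 (adjusted p = 2.17e-09) whose size depends on the pseudocount. ZNF681, another zinc finger gene, went from 7.56 and 5.52 against 943 and 973 at day 3 to 419.8 and 365 against 379 and 404 at day 7 (7.003, adjusted p = 5.82e-09). ZBED6CL was at 4.32 and 1.10 against 400.3 and 459 at day 3 and at 8.55 and 8.95 against 6.18 and 11.1 at day 7 (7.07, adjusted p = 8.85e-06). In these 3 genes the libraries of the experiments stood far apart at day 3 and close together at day 7, so they do not separate the day 7 cultures.

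HOXB8 changed sides, from 49.7 and 51.9 against 251 and 192 reads at day 3 to 868 and 1098 against 21.6 and 4.05 at day 7 (8.61, adjusted p = 4.26e-06). FOXE3, a forkhead factor of the lens, did so too, from 11.9 and 3.31 against 75.8 and 53.9 to 197 and 299 against 27.8 and 18.2 (6.49, adjusted p = 1.59e-05). SEZ6L had 279.7 and 275 against 15.2 and 9.29 at day 3 and 7.48 and 1.12 against 13.4 and 24.3 at day 7 (-6.60, adjusted p = 5.91e-05).

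MT1H, a metallothionein, was low in all day 3 libraries, at 6.48 and 9.94 against 2.02 and 7.43, and stood at 2.14 and 0 against 72.1 and 242 at day 7 (-7.08, adjusted p = 0.000227). Among the pseudogenes, EEF1A1P25 had 67.0 and 71.8 against 20.2 and 35.3 at day 3 and 0 and 1.12 against 207 and 171 at day 7 (-8.36, adjusted p = 1.32e-06). EEF1A1P29 had 23.8 and 22.1 against 5.05 and 1.86 and then 0 and 1.12 against 33.0 and 31.4 (-7.03, adjusted p = 3.4e-05). RPS3AP49 had 9.72 and 4.42 against 2.02 and 0.929 and then 0 and 0 against 41.2 and 25.3 (-6.72, adjusted p = 0.000106). These 4 have 0 to 2 reads in the FOXO4-experiment cultures at day 7, so the sizes depend on the pseudocount.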

How the results depend on the processing

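Of 246 named genes, 183 had the same call and direction under every alternative, and 192 when the left-out libraries are set aside. The 9175 calls between the day 7 scramble cultures became 3197 with a change of at least 2-fold (925 higher in the FOXO4 experiment, 2272 in the SP6 experiment). Values as deposited gave 2728 higher in the FOXO4 experiment and 6882 in the SP6 experiment. Leaving out each library gave 6307 to 7942 calls, 3454 to 4015 of them higher in the FOXO4 experiment and 2853 to 4131 in the SP6 experiment, the lowest of the last without replicate 2 of the SP6 experiment. All other settings stayed within 1.5 times the main counts, from 7252 calls (DESeq2) to 9902 (all 8 scramble libraries in 1 fit). The mitochondrial difference of 5.89 points was 6.73 with ribosomal RNAs added and 5.74 to 6.04 without 1 library. With TMM factors the difference between days was upward at 3631 genes and downward at 4369, against 4385 and 3635.

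COL1A1 was called at 0.22 without replicate 2 of the SP6 experiment and at -0.23 without its replicate 1. KRT8 was called at -0.66 under quantile normalization. The causes were not tested.

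No pairing by replicate number was seen, as the deviations of same-numbered libraries correlated at -0.101, but this value alone cannot exclude a pairing. A replicate block gave 9184 calls (4528 higher in the FOXO4 experiment, 4656 in the SP6 experiment), and 7910 for the difference between days. The crossed pairing gave 9731 calls (4810 and 4921). The crossed pairing, protein-coding genes alone, edgeR, DESeq2 and the left-out libraries of the difference between days were chosen after seeing the data.

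With 2 libraries a group, 1 of which stands alone when the other is left out and is then assumed to vary like its counterparts, a single library can decide a call. Where a group holds only a few reads of a gene, the size of the difference depends on the pseudocount.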

Other observations

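Of 31 chromatin regulators tested, 19 were higher in the FOXO4 experiment and 7 in the SP6 experiment, with a median of 0.43 (12 and 9 on the values as deposited), and of 17 YAP targets 10 and 3 (7 and 3 on those values). Of 15 genes of the unfolded protein response, 8 were higher in the FOXO4 experiment and 1 in the SP6 experiment, none by 2-fold (4 and 4 on those values). The counts were 5 and 6 of 18 for ATF4 targets, 7 and 5 of 21 for p53 targets, 4 and 3 of 12 for heat shock genes, 3 and 3 of 13 for immediate early genes and 3 and 2 of 13 for interferon genes, the FOXO4 experiment first in each. On the values as deposited they were 4 and 8, 5 and 9, 2 and 6, 2 and 4, and 1 and 3, so no direction is given, and without replicate 2 of the SP6 experiment the ATF4 targets were 5 and 2. For endoderm they were 1 and 3 of 6 (1 and 1 without replicate 2 of the SP6 experiment), for blood and endothelium 3 and 4 of 9 (2 and 2 without that library), and for nuclear noncoding RNAs 1 and 2 of 6. Only 1 of the histone genes whose messages lack a polyA tail was tested, and it was not called. FOXA1, a pioneer factor of endoderm, had 96.1 and 147 reads in the FOXO4 experiment and 20.8 and 17.3 in the SP6 experiment (2.58, SE 0.29, limma adjusted p = 0.000108).

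The 10 genes with the most counts took 10.3% and 9.997% of each FOXO4-experiment library and 6.50% and 7.08% of each SP6-experiment library.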
